A study of Mus musculus with 10 samples.

Results

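Dlx2 is a homeodomain transcription factor of GABAergic progenitors and young interneurons in the forebrain, and its binding was examined here at 8 mouse genes of neuronal migration and the cytoskeleton: Dcx, Cdk5r1, Pak3, Shtn1, Mtss1, Marcks, Gfra1 and Hgf. The members are 8 of 21887 protein-coding genes and were chosen by their regions in these same lists, with earlier results known, so every count at them is a description and carries no test. For each gene, the summits of the deposited Dlx2 chromatin immunoprecipitation (ChIP-seq) regions were taken within the gene body extended by 50 kb on each side. This gave 69 summits over 5 lists, which merged into 47 separate regions where regions of different lists overlapped by at least 1 bp. Of the 8 genes, 7 had a summit in at least 1 list and Hgf had none.

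The 5 lists come from mouse brain tissue precipitated with an anti-Dlx2 antibody, with 1 library per group. They are the cortex and the olfactory bulb at postnatal day 3 (P3), and the basal ganglia, the cortex and the olfactory bulb at embryonic day 16 (E16). The other 5 of the 10 samples are input libraries of the same tissues and ages and were not analysed here. The labels name no genotype, strain or pooling, and no mutant or treated group enters. The samples are labelled by tissue, and these tissues hold mixed cells, so fewer Dlx2-expressing cells and weaker binding per cell cannot be told apart. Peak lists hold no expression by which to check a tissue label. The lists hold 2139 regions in the P3 cortex, 734 in the P3 bulb, 14795 in the E16 basal ganglia, 6333 in the E16 cortex and 1666 in the E16 bulb. Read depth is unknown, and the lack of a region means a signal under the calling threshold, which leaves binding unmeasured.

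Young interneurons leave the ganglionic eminences and crawl tangentially to the cortex and the olfactory bulb, extending a leading process and then pulling the nucleus forward along microtubules. Doublecortin, the product of Dcx, binds and stabilises microtubules in migrating neurons, and p35, the product of Cdk5r1, activates the kinase Cdk5, which phosphorylates doublecortin among other substrates. Pak3 is a kinase that answers to the small GTPases Rac and Cdc42, and mouse mutants of Dlx1 and Dlx2 are known for raised Pak3 and overgrown neurites in immature interneurons. Shootin1, the product of Shtn1, links moving actin filaments to adhesion molecules in growth cones. Mtss1 bends membranes and organises actin beneath them, and Marcks is a membrane-bound protein kinase C substrate that ties actin to the membrane. Gfra1 is the co-receptor of the growth factor GDNF, and Hgf encodes hepatocyte growth factor, a scattering factor for migrating cells.

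Sequence at a member region could be read for Dcx alone, because its promoter is the only member promoter in the RefSeq table used here that a region overlapped. The table (GRCm38.p6) held 8 promoter windows for 4 members, Dcx, Pak3, Gfra1 and Hgf, each running from 250 bases before a transcript start to 50 bases after it. Homeodomain proteins of the Dlx family recognise sequences of the kind TAATT, which was searched on both strands together with its longer form TAATTA, and each match to the longer form is also a match to the shorter. Of 32851 promoter windows in the table, 27.0% held TAATT and 5.29% held TAATTA. Both windows of Dcx held them, and those of Pak3, Gfra1 and Hgf did not, which says nothing about binding elsewhere. The promoter of Vldlr, a reelin receptor gene described further on, is printed beside it because summits of 4 lists fell in that window, and it was chosen after its values were seen. Both lines give the 250 bases before a start, 5′ to 3′ on the strand of the gene, with TAATT or its reverse complement in capitals.
Dcx promoter, minus strand, chrX:143933220-143933469: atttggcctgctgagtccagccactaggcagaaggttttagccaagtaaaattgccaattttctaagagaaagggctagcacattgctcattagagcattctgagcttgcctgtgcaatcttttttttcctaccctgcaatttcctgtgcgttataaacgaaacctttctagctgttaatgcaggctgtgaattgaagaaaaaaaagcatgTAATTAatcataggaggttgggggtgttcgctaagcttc
Vldlr promoter, plus strand, chr19:27216234-27216483: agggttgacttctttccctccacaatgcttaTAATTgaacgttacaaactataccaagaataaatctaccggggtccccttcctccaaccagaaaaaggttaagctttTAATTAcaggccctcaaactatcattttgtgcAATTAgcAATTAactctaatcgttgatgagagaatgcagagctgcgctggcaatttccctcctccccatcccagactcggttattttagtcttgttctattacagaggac

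In the Dcx promoter the single capital stretch lay 39 to 34 bp before the start, and the E16 basal ganglia summit lay 44 bp before it. The region around that summit, from 143933023 to 143933650 on chromosome X, contained all of the printed bases. The annotated body of Dcx reaches beyond this start, so the summit counts as inside the body. The other Dcx start of the table lies downstream, so its window repeats most of the same bases, with the summit 139 bp before it. The Vldlr promoter held 4 capital stretches, at 219 to 215, 142 to 137, 110 to 106 and 103 to 99 bp before the start. Its summits lay 60 bp before the start in the P3 cortex, 85 in the P3 bulb, 117 in the E16 basal ganglia and 114 in the E16 bulb. The 250 bases were 41.6% G and C at Dcx and 41.6% at Vldlr, against a median of 52.4% over all promoters of the table. These promoters do not stand for the rest. The table held 47 promoter windows of 36 of the other listed genes, and 5 of those windows contained a summit, of which 2 held TAATT, Vldlr and Lrp8. The share of G and C in those 5 ran from 41.6% at Vldlr to 68.0% at Tubb3, whose promoter had summits in the P3 cortex and the E16 basal ganglia and no TAATT.

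Across the lists, the members were most often marked in the E16 basal ganglia, which develop from the ganglionic eminences. A summit lay in the window of 4 of 8 members in the P3 cortex, 2 in the P3 bulb, 7 in the E16 basal ganglia, 4 in the E16 cortex and 2 in the E16 bulb. Over all protein-coding genes, the same window held a summit in 12.4% of genes in the P3 cortex, 3.98% in the P3 bulb, 42.4% in the E16 basal ganglia, 28.7% in the E16 cortex and 6.62% in the E16 bulb. With every list shortened to its 734 highest regions by −log10 q, 1 member was marked in the P3 cortex, 2 in the P3 bulb, 3 in the E16 basal ganglia, 2 in the E16 cortex and 2 in the E16 bulb. Nothing is read from the members' counts against these shares, since the genes were chosen with results of these lists known. The members are also long, with a median body of 90.2 kb against 17.2 kb for all protein-coding genes, and a longer window can hold more summits. Per 100 kb of window, the members had 0.241 summits in the P3 cortex, 0.121 in the P3 bulb, 2.35 in the E16 basal ganglia, 1.33 in the E16 cortex and 0.121 in the E16 bulb. The windows of all protein-coding genes had 0.098, 0.0298, 0.887, 0.607 and 0.0539 per 100 kb in the same order. For the members, the stretch where windows overlap was counted once. For all genes, overlapping windows and the summits in them were counted for each gene, so these values are not alike in full.

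**Figure D1:**
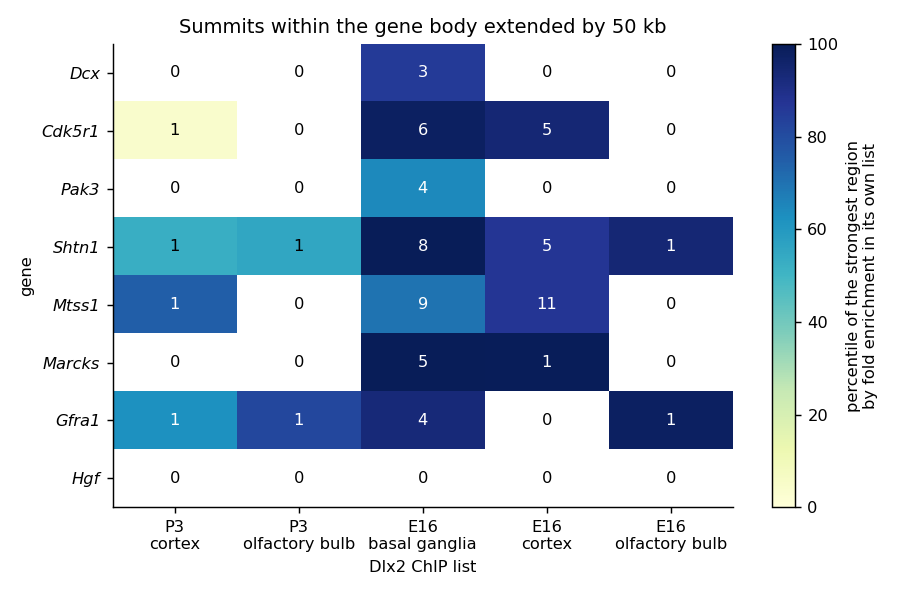
Number of summits in the gene body extended by 50 kb for each member (rows) in each Dlx2 list (columns), with colour giving the percentile of the member's strongest region by fold enrichment within its own list (white, no region). Shtn1 is filled in all 5 columns, Dcx and Pak3 in the E16 basal ganglia column, and Hgf in none.

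Dcx, the microtubule gene, had 3 summits, all of them from the basal ganglia at E16. Each fell inside the gene body on chromosome X (143855842 to 143933396) at positions 143902559, 143906684 and 143933263. The fold enrichment, which is the authors' ratio of the signal at a summit to the local background, was 4.69, 7.82 and 7.23 in that order. The strongest ranked 2433 of 14795 regions by the authors' −log10 q, the peak caller's significance corrected for multiple testing, and the promoter region ranked 2896. The P3 cortex, E16 cortex and E16 bulb lists had their nearest summits 8496, 6861 and 6545 kb away from Dcx, and the nearest P3 bulb summit lay 50426 kb away.

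Pak3, the kinase gene near Dcx on chromosome X, likewise had summits in the basal ganglia list alone, with lower fold enrichment than those of Dcx on the whole. Its 4 summits lay within the body (143518366 to 143797796) at 143543368, 143580705, 143655006 and 143757598. Their fold enrichment was 3.78, 5.28, 5.08 and 4.49, on either side of the list median of 4.55. The strongest ranked 5789 of 14795 by −log10 q, and none lay in a Pak3 promoter window. The windows of Pak3 and Dcx overlap by 42.0 kb between the gene bodies, and that stretch held 0 summits. Chromosome X as a whole was sparsely marked, which touches both genes. It held 18 regions in the P3 cortex list, 4 in the P3 bulb, 177 in the E16 basal ganglia, 74 in the E16 cortex and 15 in the E16 bulb. These made up from 0.545% of the P3 bulb list to 1.20% of the E16 basal ganglia list, and X holds 4.41% of protein-coding genes. Of 966 protein-coding genes on X, 14.8% had a summit in the E16 basal ganglia and 9.52% in the E16 cortex. The shares of all protein-coding genes were 42.4% and 28.7%. In the P3 cortex, P3 bulb and E16 bulb, 1.86%, 0.207% and 1.14% of genes on X had a summit. The shares of all protein-coding genes there were 12.4%, 3.98% and 6.62%. The part of this in the absence of Dcx and Pak3 from the other lists was not tested.

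Cdk5r1, the gene of the Cdk5 activator, is 4162 bp long and was covered by wide regions at E16. In the E16 basal ganglia a region of 8060 bp spanned the whole body (chromosome 11, 80476509 to 80484568) with a fold enrichment of 15.6, and ranked 351 of 14795. In the E16 cortex a region of 4167 bp covered 93.4% of the body with a fold enrichment of 12.3, and ranked 282 of 6333. The summits of these regions were 21 bp apart, at 80480212 in the basal ganglia and 80480191 in the cortex. The cortex list had 3 more regions just beyond the gene, of 643, 554 and 578 bp, and the single basal ganglia region overlapped each of them.

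The remaining summits of the Cdk5r1 window lay mostly in its neighbours. Of the 12 summits of the whole window, 6 fell within Myo1d, a myosin gene, among them those of the cortex regions of 554 and 578 bp described above. Another 2 fell within Psmd11, a proteasome subunit gene, and which gene such a region acts on is not known from its position. The Psmd11 pair had a fold enrichment of 3.91 in the E16 basal ganglia and 2.88 in the E16 cortex, with summits 33 bp apart. The single P3 summit of the window lay 37.6 kb from the gene in Myo1d, with a fold enrichment of 2.79 in the P3 cortex. The E16 basal ganglia had a region there of 8.62 with its summit 35 bp away, and the E16 cortex had none. Both bulb lists had no summit nearer than 1132 kb to Cdk5r1.

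Shtn1, the gene of the actin linker shootin1, was the only member with a region in all 5 lists. All 16 of its summits lay within the body (chromosome 19, 58973358 to 59076124), 1 in the P3 cortex, 1 in the P3 bulb, 8 in the E16 basal ganglia, 5 in the E16 cortex and 1 in the E16 bulb. The region common to the 5 lists had a fold enrichment of 4.51 in the P3 cortex, 5.95 in the P3 bulb, 34.0 in the E16 basal ganglia, 8.89 in the E16 cortex and 9.13 in the E16 bulb. Fold enrichment depends on each library's depth and background, so its place within a list is the safer guide. By −log10 q the region ranked 1234 of 2139 in the P3 cortex, 277 of 734 in the P3 bulb, 33 of 14795 in the E16 basal ganglia, 913 of 6333 in the E16 cortex and 72 of 1666 in the E16 bulb. It was thus near the top of the lists of the basal ganglia and bulb at E16 and just below the middle of the P3 cortex list.

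The Shtn1 summits at E16 coincided closely. They lay at 59043784 in the basal ganglia, 59043768 in the cortex and 59043773 in the bulb, within 16 bp of each other. The P3 summits lay to either side, at 59044000 in the P3 cortex and 59043615 in the P3 bulb, which are 385 bp apart. The P3 cortex summit was 232 bp from that of the E16 cortex, and the P3 bulb summit 158 bp from that of the E16 bulb. The 5 regions shared a stretch of 445 bp, from 59043755 to 59044199, which left the P3 bulb summit outside.

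**Figure D2:**
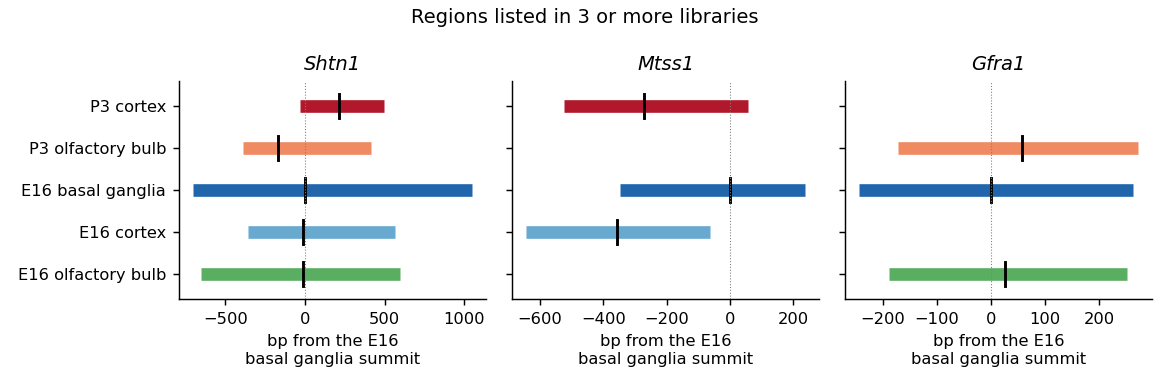
Extent (coloured bars) and summit (black tick) of each list's region at the merged regions held by 3 or more lists, in bp from the E16 basal ganglia summit. At Shtn1 the 3 E16 summits fall within 16 bp and the P3 summits to either side, and at Gfra1 all 3 summits fall within 57 bp.

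Beside the common region, the Shtn1 body held 4 regions of the E16 basal ganglia list that no other list overlapped. Their fold enrichment was 12.4, 10.4, 7.43 and 4.88, and that of 7.43, with its summit 3.58 kb inside the upper end of the body, spanned 1119 bp. Another 3 regions were shared by the basal ganglia and the cortex at E16. Their fold enrichment in the basal ganglia was 3.71, 5.47 and 4.34, and in the cortex 4.27, 6.59 and 3.66 at the same places. The summits of these pairs were 9, 19 and 203 bp apart in the same order. A single region, of 4.13, was in the E16 cortex list alone.

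Mtss1, the gene of the membrane-bending protein, had the most summits of any member, 21, spread along its body (chromosome 15, 58941234 to 59083956). There was 1 in the P3 cortex, 0 in the P3 bulb, 9 in the E16 basal ganglia, 11 in the E16 cortex and 0 in the E16 bulb. It was the only member with more summits in the E16 cortex than in the E16 basal ganglia. Most were weak, with a fold enrichment from 3.13 to 5.67 in the basal ganglia, and from 3.51 to 5.00 in the E16 cortex except for 1 region of 8.89. That last region ranked 913 of 6333 and was also in the P3 cortex list, where it had 5.47 and ranked 425 of 2139, with summits 86 bp apart. In the basal ganglia an overlapping region had 3.91 and ranked 11126 of 14795, its summit 356 bp from the E16 cortex summit. The nearest summits of the bulb lists lay 196 kb away in the P3 bulb and 196 kb away in the E16 bulb.

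Of the 15 merged Mtss1 regions, 5 were in more than 1 list, 4 were in the E16 basal ganglia alone and 6 in the E16 cortex alone. Of the 21 summits, 3 lay within the long noncoding RNA gene Gm41330, which overlaps Mtss1. Most summits of both E16 lists lay from 33.8 to 51.2 kb or from 113 to 130 kb from the lower end of the body, as the plot of summit positions shows.

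**Figure D3:**
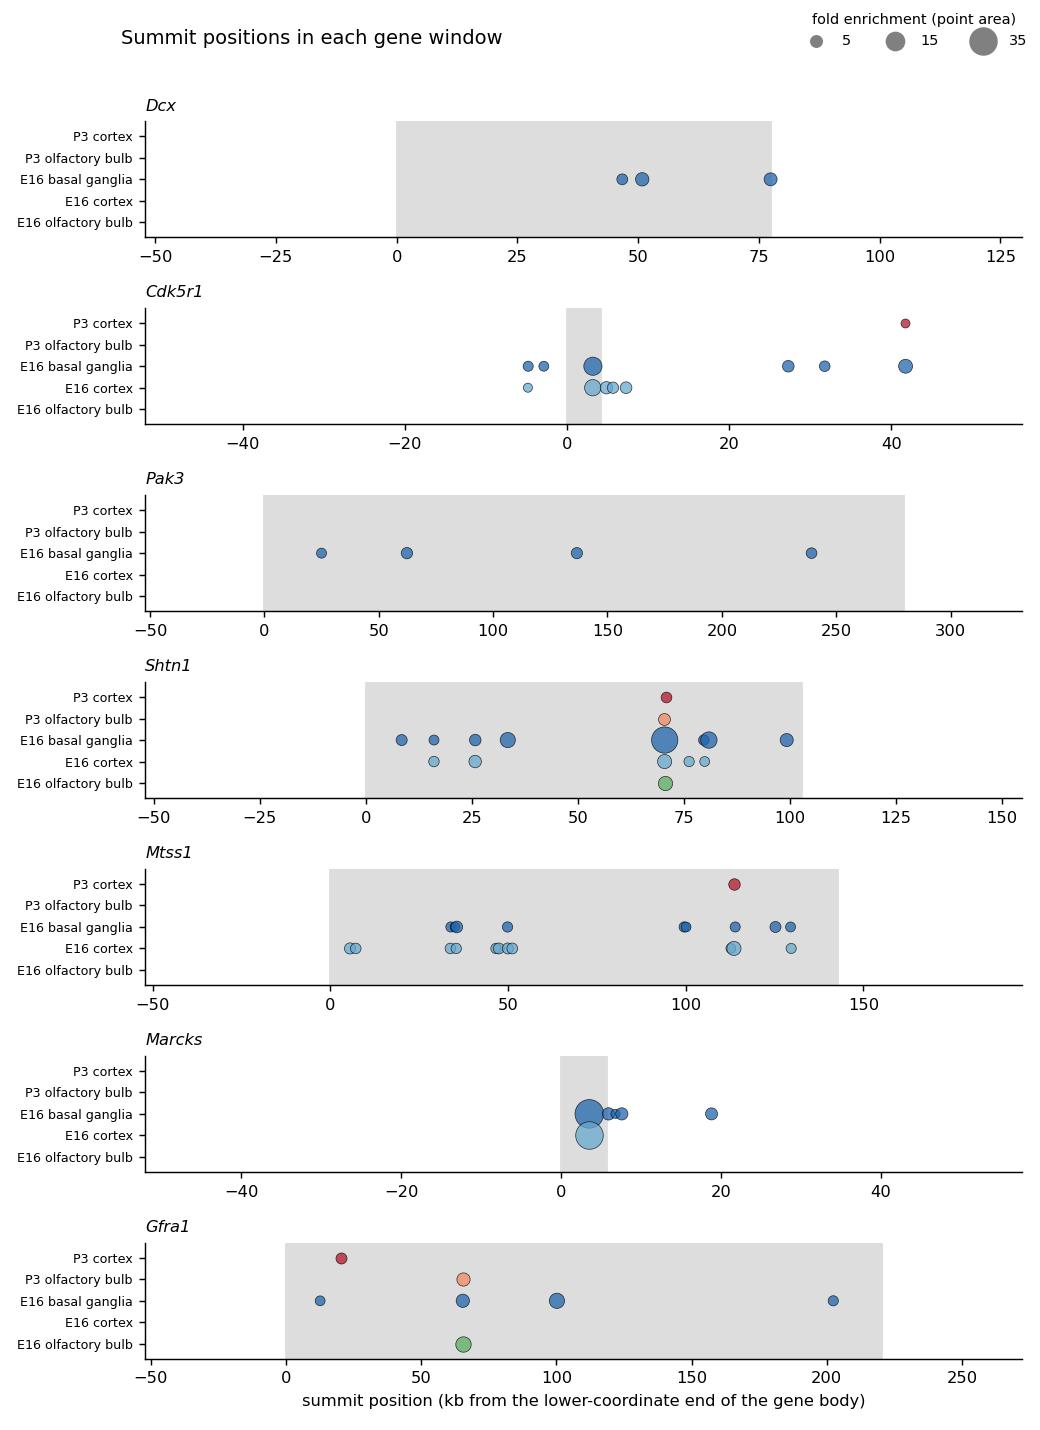
Summit positions in kb from the lower-coordinate end of each gene body (grey band), 1 row per list, with point area proportional to fold enrichment plus a constant. Summits of Cdk5r1 and Marcks sit on and beside short bodies, those of Mtss1 and Shtn1 are spread along long ones, and every Dcx and Pak3 point is in the E16 basal ganglia row.

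Marcks, the actin-tethering kinase substrate, held the strongest region of any member. Its body covers 5684 bp of chromosome 10, from 37133243 to 37138926. The E16 basal ganglia region was 5039 bp wide, covered 84.8% of the body and had a fold enrichment of 40.5, which ranked 5 of 14795 by −log10 q. The E16 cortex region was 3305 bp wide, covered 58.1% and had 37.5, which ranked 24 of 6333. Their summits were 37 bp apart, at 37136761 in the basal ganglia and 37136724 in the cortex. The basal ganglia list had 4 further regions at higher coordinates that the cortex list lacked, with summits, at 0.23, 1.11, 1.90 and 13.1 kb from it. Their fold enrichment was 6.45, 2.96, 6.30 and 6.10, and those 1.11 and 1.90 kb away lay in the noncoding RNA gene 5930403N24Rik. The other lists had no region near Marcks, the nearest summit lying 1219 kb away in the P3 cortex, 1231 kb in the P3 bulb and 556 kb in the E16 bulb.

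The receptor gene Gfra1 showed a different pattern, with regions in both bulb lists and in the basal ganglia and none in the E16 cortex. Its body covers 220 kb of chromosome 19, from 58235581 to 58455946, and held all 7 summits. The region shared by 3 lists had a fold enrichment of 7.64 in the P3 bulb, 7.65 in the E16 basal ganglia and 10.8 in the E16 bulb. It ranked 132 of 734 in the P3 bulb, 2135 of 14795 in the basal ganglia and 55 of 1666 in the E16 bulb. The summits lay at 58301037 in the P3 bulb, 58300980 in the basal ganglia and 58301006 in the E16 bulb, so the P3 and E16 bulb summits were 31 bp apart. The nearest E16 cortex summit lay 367 kb from the gene.

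A stronger Gfra1 region of the basal ganglia list, with a fold enrichment of 10.6 at 58335785, was in no other list, and neither were 2 weak ones of 3.62 and 3.96. The P3 cortex region of the gene, with 4.87 at 58255739, was likewise in no other list. It was the only one of the 4 P3 cortex regions at members that no other list overlapped. Over the whole P3 cortex list, 1363 of 2139 regions were overlapped by no other list. Gfra1 and Shtn1 were the members with a region in both bulb lists, 1 region each. Each of these regions was also in the basal ganglia list. Over the whole lists, 65.9% of P3 bulb and 72.7% of E16 bulb regions met a basal ganglia region.

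Hgf, the ligand gene (chromosome 5, 16553495 to 16619439), had no summit in its window in any list. Its nearest summits lay 208 kb away in the P3 cortex, 506 kb in the P3 bulb, 387 kb in the E16 basal ganglia, 4083 kb in the E16 cortex and 471 kb in the E16 bulb. That of the P3 cortex, with a fold enrichment of 5.05, lay within Cacna2d1, a calcium channel subunit gene.

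Few summits lay near the 50 kb limit. The farthest summit inside it for Cdk5r1 lay 37.6 kb away, with a fold enrichment of 8.62 in the E16 basal ganglia, and the farthest for Marcks 13.1 kb away, with 6.10 in the same list. The nearest outside it, all from the basal ganglia list, lay 82.4 kb from Cdk5r1 with a fold enrichment of 3.36, 90.3 kb from Shtn1 with 9.68 and 94.99 kb from Gfra1 with 3.39. That beyond Shtn1 lay within Vax1, a homeobox gene of the ventral forebrain. In all, 55 of the 69 summits lay inside a member's body, and the other 14 were at the short genes Cdk5r1 and Marcks.

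Within their lists, member regions lay on both sides of the list median in strength in the P3 cortex and in the basal ganglia and cortex at E16, and above it in both bulb lists. The median fold enrichment at members was 4.69 in the P3 cortex, 6.80 in the P3 bulb, 4.88 in the E16 basal ganglia, 4.72 in the E16 cortex and 9.99 in the E16 bulb. The medians of the whole lists were 4.42, 5.69, 4.55, 5.02 and 5.25 in the same order. Regions above the list median numbered 3 of 4 in the P3 cortex, 2 of 2 in the P3 bulb, 22 of 39 in the E16 basal ganglia, 8 of 22 in the E16 cortex and 2 of 2 in the E16 bulb. Regions wider than 1 kb numbered 4 of 39 in the E16 basal ganglia, 3 of 22 in the E16 cortex and 1 of 2 in the E16 bulb, and 0 in both P3 lists. In the whole lists that width was exceeded by 1.92% of P3 cortex, 0.681% of P3 bulb, 13.8% of E16 basal ganglia, 25.2% of E16 cortex and 0.36% of E16 bulb regions.

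**Figure D4:**
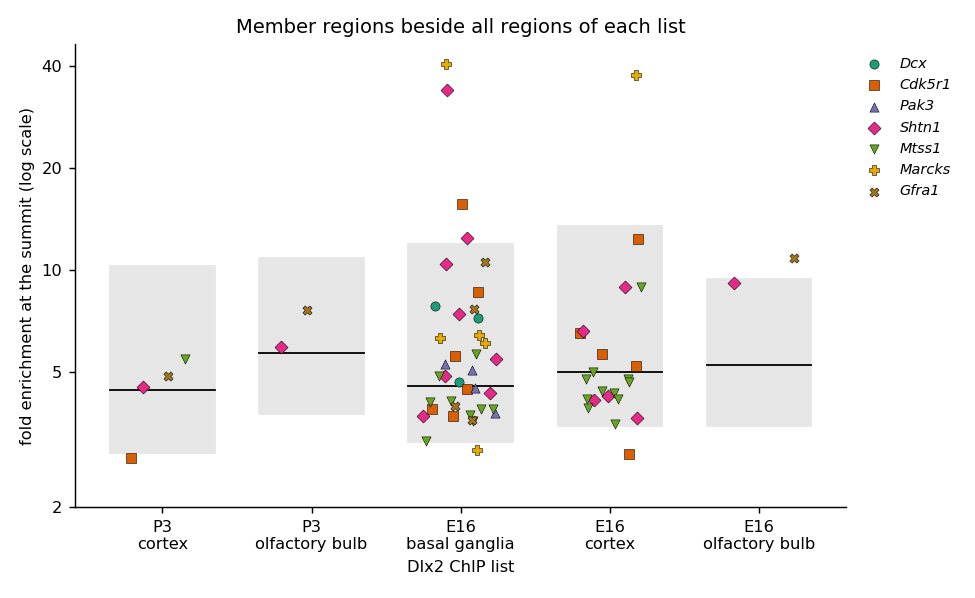
Fold enrichment at the summit (log axis) of every member region by list, with a line at the median and a grey box from the 5th to the 95th percentile of all regions of that list. The wide Marcks regions of the basal ganglia (40.5) and the cortex (37.5) at E16 and the Shtn1 region of the basal ganglia (34.0) stand highest.

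Between the basal ganglia and the cortex at E16, member regions were shared at rates near those of the whole lists. Among 39 basal ganglia regions, 12 met a cortex region (30.8%), against 26.4% of the whole basal ganglia list. Among 22 cortex regions, 15 met one of the basal ganglia (68.2%), against 61.5% of the whole cortex list. Overlapping summits of these lists were 9 to 4088 bp apart with a median of 123 bp, the widest gap being that within the Cdk5r1 block. Of the 47 merged regions, 25 were in the basal ganglia list alone, 10 in the basal ganglia and cortex lists of E16 with no other and 7 in the E16 cortex alone. These are 53.2%, 21.3% and 14.9% of the merged member regions, against 50.3%, 17.1% and 13.0% of the 18667 merged regions of the whole lists, so the members stood near the lists as a whole. A region in all 5 lists, as at Shtn1, was found at 34 of the 18667.

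Between ages, the cortex lists shared 2 member regions, at Shtn1 and Mtss1, of 4 in the P3 cortex and 22 in the E16 cortex, and over the whole lists 5.14% of P3 cortex regions met an E16 cortex region and 1.71% of E16 cortex regions met a P3 cortex region. The bulb lists shared 2 of 2 regions in the P3 bulb and 2 of 2 in the E16 bulb, at Shtn1 and Gfra1, and over the whole lists 71.5% of P3 bulb regions met an E16 bulb region and 31.6% of E16 bulb regions met a P3 bulb region. With so few regions, and 1 library per group, no difference between the tissues in this sharing was tested. The peak names of the P3 cortex list lack the mark dedup that those of the other 4 lists carry, so age and this difference in naming cannot be told apart in the cortex.

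The genes most like Shtn1 and Gfra1 were sought by the percentile of their strongest region within each of the 5 lists, taking the smallest Euclidean distance, which uses 1 library per list. Nearest to Shtn1 was Lingo1, a neuronal membrane receptor gene, at a distance of 23.6, then Btbd9 at 31.7 and Zc3h4 at 32.6. The percentiles of Shtn1 were 52.5 in the P3 cortex, 55.4 in the P3 bulb, 99.8 in the E16 basal ganglia, 87.1 in the E16 cortex and 93.8 in the E16 bulb. Those of Lingo1 were 73.9, 63.1, 95.3, 90.0 and 96.4 in the same order. Nearest to Gfra1 was Vwa5b1 at 8.02.

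Other genes of the same machinery were counted in a list of 51, of which 9 had a summit in the window in the P3 cortex (17.6%), 7 in the P3 bulb (13.7%), 39 in the E16 basal ganglia (76.5%), 31 in the E16 cortex (60.8%) and 7 in the E16 bulb (13.7%). The shares of all protein-coding genes were those given above, from 3.98% in the P3 bulb to 42.4% in the E16 basal ganglia. The listed genes have a median body of 37.8 kb, longer than the 17.2 kb of all protein-coding genes, and the part of length in these counts was not tested. None of the 51 was marked in all 5 lists, and 10 were in no list. No more than the 3.98% of all protein-coding genes marked in the P3 bulb could be in all 5. The shares of all protein-coding genes in all 5 lists and in no list are not given here, so nothing is read from these counts.

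For the listed genes below, each fold enrichment is the highest in the window in that list, and its summit can lie outside the gene. The actin and membrane regulators were all marked in the basal ganglia and the cortex at E16. Of 11 genes, among them Marcksl1, Mtss2, Gap43, Flna and Cfl1, 0 had a summit in the P3 cortex, 0 in the P3 bulb, 11 in the E16 basal ganglia, 11 in the E16 cortex and 0 in the E16 bulb. Over all protein-coding genes the shares are 12.4% in the P3 cortex, 3.98% in the P3 bulb and 6.62% in the E16 bulb, which 0 of 11 is near, and 42.4% in the E16 basal ganglia and 28.7% in the E16 cortex. The highest of the whole list was Basp1, a growth cone protein gene related in function to Marcks, with a fold enrichment of 30.3 in the basal ganglia over 3641 bp and 25.8 in the E16 cortex over 3416 bp. Like Marcks, it had no summit in the other 3 lists. Of 13 microtubule and dynein genes, 4 were marked in the P3 cortex, 2 in the P3 bulb, 11 in the E16 basal ganglia, 12 in the E16 cortex and 2 in the E16 bulb. The doublecortin relative Dclk2 had 6.10 in the P3 bulb, 17.2 in the E16 basal ganglia, 8.40 in the E16 cortex and 6.75 in the E16 bulb. The microtubule protein gene Map1b had 9.53 in the E16 basal ganglia and 17.5 in the E16 cortex. Mapt, which encodes the axonal protein tau, had 6.05 in the P3 cortex, at a summit 33.4 kb outside the gene, 4.64 in the P3 bulb, 6.25 in the E16 basal ganglia and 10.4 in the E16 cortex. The neuronal tubulin gene Tubb3 had 2.97 in the P3 cortex, 13.7 in the E16 basal ganglia, 9.79 in the E16 cortex and 5.73 in the E16 bulb. Its promoter summit in the E16 basal ganglia was a weaker one, of 4.69.

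Of 6 genes of Cdk5 and reelin signalling, 3 were marked in the P3 cortex and 1 in the P3 bulb. In the E16 lists, 6 were marked in the basal ganglia, 2 in the cortex and 2 in the bulb. Over all protein-coding genes the shares are 12.4% in the P3 cortex, 3.98% in the P3 bulb, 42.4% in the E16 basal ganglia and 6.62% in the E16 bulb. The count of 2 of 6 (33.3%) in the E16 cortex is near the 28.7% of all protein-coding genes. The region at the promoter of Vldlr had a fold enrichment of 9.20 in the P3 cortex, 6.70 in the P3 bulb, 13.3 in the E16 basal ganglia and 11.2 in the E16 bulb. It ranked 169 of 2139, 101 of 734, 400 of 14795 and 21 of 1666 in the same order, and the E16 cortex list had no region in the Vldlr window. The summits of the P3 cortex, P3 bulb and E16 bulb lay 0.056, 0.081 and 0.11 kb outside the Vldlr body and within another gene, Gm35438. That of the E16 basal ganglia, at 27216367, was also outside the body, next to the E16 bulb summit at 27216370. The reelin gene Reln had 7.94 in the P3 cortex and 7.62 in the E16 basal ganglia. Lrp8, the other reelin receptor gene, had 14.3 in the E16 basal ganglia and 24.0 in the E16 cortex, there over 2830 bp. Its promoter summit in the E16 basal ganglia was a weaker one, of 4.1.

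The Pak3 relatives Pak1 and Pak2 had no summit in the window in any list. Of 11 ligand, receptor and adhesion genes, 0 were marked in the P3 cortex, 3 in the P3 bulb, 5 in the E16 basal ganglia, 3 in the E16 cortex and 2 in the E16 bulb. The E16 basal ganglia share of 45.5% and the E16 cortex share of 27.3% are near the 42.4% and 28.7% of all protein-coding genes. In the P3 cortex, P3 bulb and E16 bulb, 12.4%, 3.98% and 6.62% of all protein-coding genes were marked. The adhesion gene Ncam1, whose product also serves as a GDNF receptor with Gfra1, had 6.19 in the P3 bulb, 4.88 in the E16 basal ganglia, 6.29 in the E16 cortex and 5.73 in the E16 bulb. Met, the receptor of Hgf, had no summit in its window in any list, and neither did Gdnf or Ret, the ligand and the signalling receptor that work with Gfra1.

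**Figure D5:**
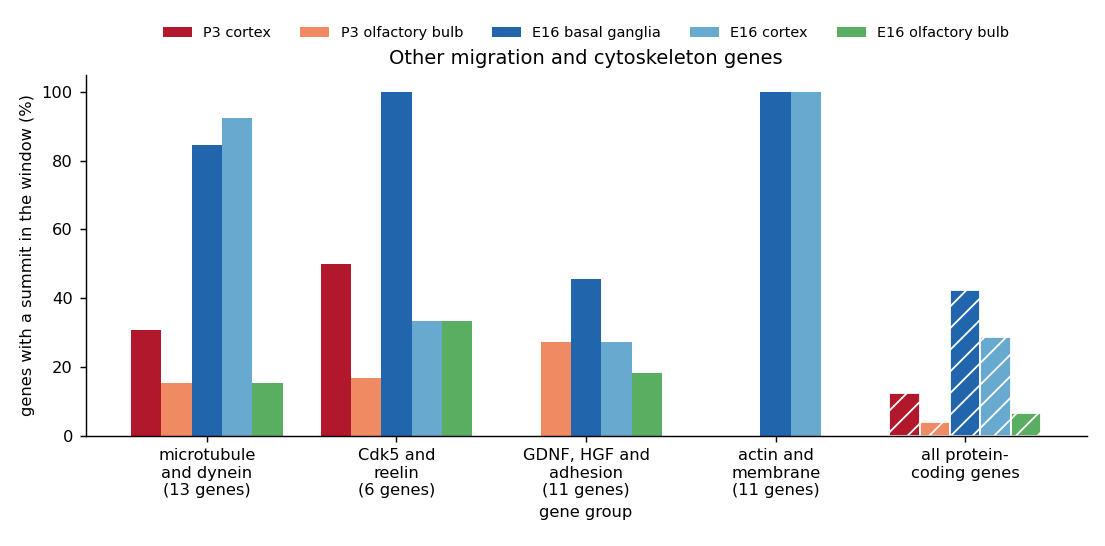
Percent of genes with at least 1 summit in the body extended by 50 kb, for 4 groups of the other genes and, hatched, for all protein-coding genes, with 1 bar per list. The 11 actin and membrane regulators reach 100% in the basal ganglia and the cortex at E16 and 0% in the other 3 lists.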

How the data were processed

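Dlx2 ChIP-seq regions of 5 mouse brain libraries were used, 1 per tissue and age. Trimmomatic, Bowtie2, SAMtools and MACS2 and the build mm10 appear, with no tool version, per the submitters' processing notes. Neither the peak-calling threshold nor the control library is given in those notes or the labels. The deposited fold enrichment is a ratio of summit signal to local background. The deposited −log10 p and −log10 q are the peak caller's, and the deposited score is 10 times −log10 q in whole numbers, to within 1, and was not used. These values describe regions within a list.

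The members and gene lists were chosen with earlier results of these data known. Named were the 8 members with every summit, the 3 other listed genes highest in fold enrichment in each list, and the 3 genes most like each member with a summit in 4 or 5 lists, and other listed genes were named after their values were seen. A group of listed genes and 3 genes under this rule are not reported here. Gene bodies came from RefSeq (GRCm38.p6, the same build), without exons. Coordinates count from 1. Mtss2 was matched by its older symbol. No test was run. Python 3.11.15, pandas 2.3.3, numpy 2.4.6, SciPy 1.17.1 and matplotlib 3.10.9 were used, and window counts and merging were tested on simulated regions. Alternatives were windows of 10 and 100 kb, a −log10 q of at least 5, the 734 highest regions of each list, and stricter overlap.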

Additional observations from a re-analysis of the deposited data

How the results depend on the processing

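Extending gene bodies by 10 or 100 kb instead of 50 kb, or keeping regions with a −log10 q of at least 5, left each count of summits and of members per list within 1.5 times its value. With the 734 highest regions by −log10 q of each list, member summits numbered 1 in the P3 cortex (4 with all regions), 3 in the E16 basal ganglia (39) and 2 in the E16 cortex (22), and members with a summit numbered 1, 3 and 2 in the same lists (4, 7 and 4). Both bulb lists kept 2 summits. This setting keeps fewer regions of the longer lists by construction. The number of merged regions in 2 or more lists was 13 when 50% of the shorter region had to overlap and 13 when summits had to lie within 200 bp, against 14. Under the summit limit 0 regions were in all 5 lists, against 1, since the P3 cortex summit at Shtn1 lay 216 bp or more from the others. No paired analysis was possible because each group has 1 library and no test was run. Unknown read depth limits what the absence of a region shows, and no exon map or genome sequence was used here.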
